A study of Mus musculus with 2 samples.

Results

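The Mef2 loci examined here are Mef2a on chromosome 7, Mef2c on chromosome 13 and Mef2d on chromosome 3 of the mouse genome, build mm9. Their members were the FoxO3 peaks whose summit lay in the gene or within 20 kb of it, in either of the deposited peak lists. There were 23 such peaks, all from the myotube list, of 45958 peaks in both lists together. FoxO3 was mapped by ChIP-seq in C2C12, a mouse myoblast line, with the same anti-Foxo3 antibody at hour 72 of differentiation medium (DMEM with 2% horse serum), called myotubes here, and at hour -24, called myoblasts here, when cells were kept in growth medium (DMEM with 10% FBS). No genotype change or drug is given in the labels. Each condition was 1 library of 1 cell line, so no value carries a replicate error and no difference between the conditions was tested. The labels give C2C12 myoblasts as the source of both samples, and the lists hold no expression values that could check whether the later cells had fused.

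MEF2 proteins are MADS-box transcription factors that bind an A/T-rich element and act with MyoD and its relatives to turn on muscle genes as myoblasts differentiate. Mef2a, Mef2c and Mef2d encode the family members best known from skeletal muscle, and in differentiating muscle the Mef2c gene is itself switched on by MyoD-family and MEF2 proteins. FoxO3 is a forkhead factor that growth factor signalling holds out of the nucleus. It is known in muscle mainly for atrophy genes, and the title of the series places it beside MyoD at super-enhancers. Mef2b, the remaining family member, was not analysed here.

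The sequences at the annotated starts of the genes are shown because the loci differ in how the peaks lie around the start. They are RefSeq promoters of assembly GRCm38.p6, each with 250 bases before and 50 after the start, written 5′ to 3′ on the gene's own strand. RefSeq lists 1 start for Mef2a, 3 for Mef2c and 1 for Mef2d, and the first start of each along its strand is given. Capitals mark a match to the MEF2 consensus, the A/T-rich element that MEF2 proteins bind. These positions belong to another build than the peaks and cannot be set beside peak positions. Peak distances below are counted from the rounded mm9 ends of each gene.
Mef2a, GRCm38.p6 chr7:67372809-67373108, minus strand: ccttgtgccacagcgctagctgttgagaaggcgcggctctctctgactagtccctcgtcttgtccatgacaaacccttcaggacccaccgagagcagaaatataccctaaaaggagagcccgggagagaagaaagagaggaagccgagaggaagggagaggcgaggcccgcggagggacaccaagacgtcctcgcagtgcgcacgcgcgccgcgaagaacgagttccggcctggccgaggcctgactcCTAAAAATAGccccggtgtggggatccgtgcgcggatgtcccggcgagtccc
Mef2c, GRCm38.p6 chr13:83503784-83504083, plus strand: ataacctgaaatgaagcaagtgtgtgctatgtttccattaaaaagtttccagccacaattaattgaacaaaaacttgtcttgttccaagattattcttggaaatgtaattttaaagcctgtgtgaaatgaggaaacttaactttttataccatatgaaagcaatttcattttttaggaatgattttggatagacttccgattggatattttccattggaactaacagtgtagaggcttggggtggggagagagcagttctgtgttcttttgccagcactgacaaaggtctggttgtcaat
Mef2d, GRCm38.p6 chr3:88142122-88142421, plus strand: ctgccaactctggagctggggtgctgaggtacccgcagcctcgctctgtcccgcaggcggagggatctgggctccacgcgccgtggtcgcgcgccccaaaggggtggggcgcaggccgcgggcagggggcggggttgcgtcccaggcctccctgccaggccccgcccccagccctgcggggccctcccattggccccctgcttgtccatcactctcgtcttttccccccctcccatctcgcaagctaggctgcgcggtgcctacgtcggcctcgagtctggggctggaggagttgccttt
The Mef2a promoter held 1 match to the MEF2 consensus, CTAAAAATAG, at bases 249 to 258 of the 300, across the annotated start. The consensus is its own reverse complement, and 3.19% of the 32851 RefSeq promoters of this length hold a match. None of the 3 Mef2c promoters or the Mef2d promoter held one (0). The forkhead core GTAAACA, searched on both strands, was in none of the 5 promoters (0), against 3.65% of all promoters. The E-box CAGCTG, a sequence MyoD can bind and its own reverse complement, was also in none of the 5 (0), against 16.3% of all promoters. The general E-box CANNTG, also its own reverse complement, had 2 matches at the first Mef2c start, 1 at the third and 0 at the other promoters of these genes, where 72.3% of all promoters hold at least 1. These matches describe letters in short windows around the starts. Base composition differed widely, with a GC content of 62.3% at the Mef2a start, 35.7% at the first Mef2c start and 72.0% at the Mef2d start, beside a median of 52.7% over all promoters. The DNA under the peaks themselves is not shown, since no mm9 sequence was used here.

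All 3 loci carried FoxO3 peaks in myotubes and none carried a peak in myoblasts. Carrying a myotube peak was common. Of windows across the autosomes and X, 41.9%, 39.9% and 59.2% held no myotube peak at the Mef2a, Mef2c and Mef2d lengths. The rest held at least 1. The Mef2a locus had 9 myotube peaks (exact Poisson 95% interval 4.12 to 17.1) and 0 myoblast peaks. The Mef2c locus had 8 myotube peaks (3.45 to 15.8) and 0 myoblast peaks, and the Mef2d locus had 6 (2.20 to 13.1) and 0. The intervals of the 3 myotube counts overlap one another, and they cover counting error only. The absence of myoblast peaks says little about these genes, because the myoblast list held 501 peaks in all, against 45457 in the myotube list. At that list's mean density, the 456 kb of the 3 windows would hold 0.0887 myoblast peaks. Among windows of the same lengths laid end to end across the autosomes and X, those holding at least 1 myoblast peak made up 3.21% at the Mef2a length, 3.61% at the Mef2c length and 1.28% at the Mef2d length. As a one-sided limit, a count of 0 allows up to 3 peaks in the 456 kb, or 6.58 per Mb (the two-sided Poisson interval reaches 3.69 peaks). Within these same windows the myotube list had 50.4 peaks per Mb. Both densities count listed peaks only, from lists of very unlike size, and do not compare binding between the conditions. With no myoblast peak in or near the windows, none of the 23 peaks could overlap one (0), so this adds nothing to the counts. Over the whole myotube list 0.224% of peaks overlapped a myoblast peak. The myoblast peak nearest to any of the genes was 168 kb before Mef2d, between positions 87777951 and 87778026 of chromosome 3, where 8 reads gave a fold of 18.03. For Mef2a the nearest was 3347 kb away and for Mef2c 7847 kb.

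**Figure D1:**
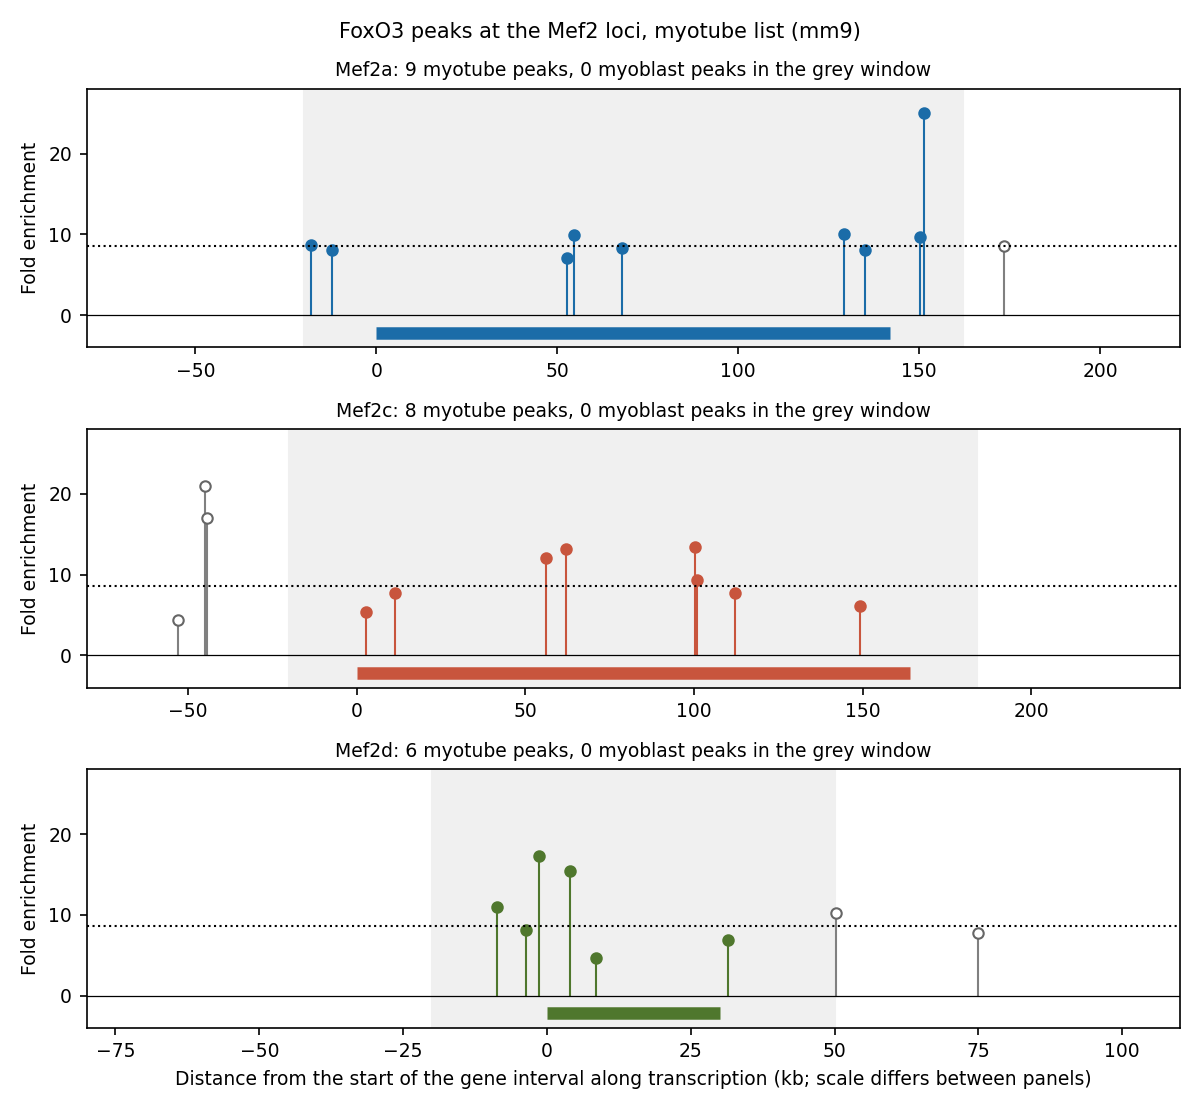
FoxO3 fold enrichment (vertical axis, the authors' linear ratio) of each myotube peak against its distance in kb from the start of the gene interval, along the direction of transcription, for Mef2a, Mef2c and Mef2d. Filled points are the 9, 8 and 6 peaks of the grey windows, open points are peaks outside them, the thick bar is the gene, and the dotted line is the median fold of the whole myotube list, 8.59. The Mef2d peaks crowd around the gene start, the Mef2c peaks lie inside the gene, and the Mef2a peaks are spread as pairs with the highest one past the gene end.

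The peaks sat differently on each gene. At Mef2c all 8 lay between the ends of the gene. At Mef2a 5 lay inside the gene, 2 upstream of its start and 2 past its end. At Mef2d 2 lay inside, 3 upstream and 1 past the end. The gene itself made up 164 of the 204 kb of the Mef2c window, 142 of 182 kb at Mef2a and 30 of 70 kb at Mef2d. Counts inside and outside the gene therefore cover unlike lengths, and their differences between the genes were not tested. The gene ends used are rounded to whole kb, giving lengths of 142, 164 and 30 kb for Mef2a, Mef2c and Mef2d, beside RefSeq lengths of 145.3, 163.1 and 30.2 kb on GRCm38.p6. Distances below are therefore approximate to the kb or, for the Mef2a start, to a few kb. Positions relative to exons, introns and the further Mef2c starts were not examined, for want of an mm9 annotation.

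Mef2d was the only gene of the 3 with a peak within 2 kb of its start. Mef2d encodes a MEF2 factor found in many tissues, with an isoform made in differentiating muscle. Its strongest peak lay 1.3 kb upstream of the start, from 87944490 to 87944850, with a fold of 17.25 (Poisson interval 12.1 to 23.8, from the summit reads alone) and 37 reads. The next lay 4.1 kb inside the gene, from 87949951 to 87950204, with a fold of 15.47 (10.6 to 21.8) and 32 reads. The intervals of these peaks overlap, so their order by fold was not resolved at this depth. Another peak, 8.6 kb upstream, had a fold of 11.01 and 25 reads, and one 3.6 kb upstream had 8.06, also with 25 reads. A weak peak 8.5 kb inside the gene had a fold of 4.70 and 17 reads. These 5 peaks, from 87937216 to 87954575, joined into 1 group spanning 17.4 kb. The remaining Mef2d peak stood alone 1.5 kb past the gene end, with a fold of 6.91 and 17 reads. The gene body from 8.5 kb after the start to its end at 30 kb held no other listed peak.

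Mef2c, the member whose loss disrupts heart and muscle formation in mice, had peaks of modest fold along its whole length. The peak nearest to its start lay 2.9 kb inside, from 83645839 to 83645998. It was the weakest at this gene, with a fold of 5.41 (2.96 to 9.08) and 14 reads. A second peak at 11.4 kb had a fold of 7.74 and 20 reads. The folds were highest in the middle of the gene. A pair at 56.2 and 62.2 kb, from 83699127 to 83705245, had folds of 11.99 (31 reads) and 13.22 (20 reads). The highest fold, 13.44 (8.61 to 20; 24 reads), was at 100.4 kb, from 83743131 to 83743483. It was followed 345 bp on by a peak of fold 9.29 (17 reads) and, at 112.3 kb, by a peak of fold 7.74 (20 reads), and these 3 formed the only group of 3 or more at Mef2c, spanning 12.3 kb. The last peak, at 149.3 kb, stood alone with a fold of 6.08 and 22 reads. The interval of the highest peak overlaps those of all the other Mef2c peaks, so the rise in mid-gene is a description of these values only.

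Mef2a held the strongest of the 23 peaks, and it was not inside the gene. Mef2a encodes a MEF2 factor present in skeletal and heart muscle. Its strongest peak lay 9.4 kb past the gene end, from 74366378 to 74367077 on chromosome 7. It had a fold of 24.98 (18.7 to 32.8), 52 reads and a −log10 q-value of 49.34. It was also the widest of the 23, at 700 bp. Its fold stood at the 96.8 percentile of the myotube list. The interval does not reach the fold of any other peak at the 3 loci, although it overlaps the intervals of the strongest peaks at Mef2c and Mef2d. The next protein-coding gene on that side is Lysmd4 in RefSeq's GRCm38.p6 gene order, and no mm9 position of Lysmd4 was used, so to which gene this peak is nearer is not stated. A peak of fold 9.67 (15 reads) lay 1325 bp from it, 8.1 kb past the gene end.

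The other 8 Mef2a peaks were nearly equal, with folds of 7.09 to 9.99. Near the 3′ end of the gene were peaks of fold 9.99 (31 reads) at 129.1 kb and 8.12 (21 reads) at 135.1 kb from the start. In the middle were peaks of fold 7.09 (22 reads) at 52.6 kb, 9.91 (15 reads) at 54.7 kb and 8.29 (30 reads) at 68.0 kb. Upstream were peaks of fold 8.01 (29 reads) at 12.1 kb and 8.70 (27 reads) at 17.9 kb before the start. Their intervals all overlap. No Mef2a peak lay within 10 kb of the start used here (0), and 64.7 kb separated the nearest upstream summit from the first one inside the gene.

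**Figure D2:**
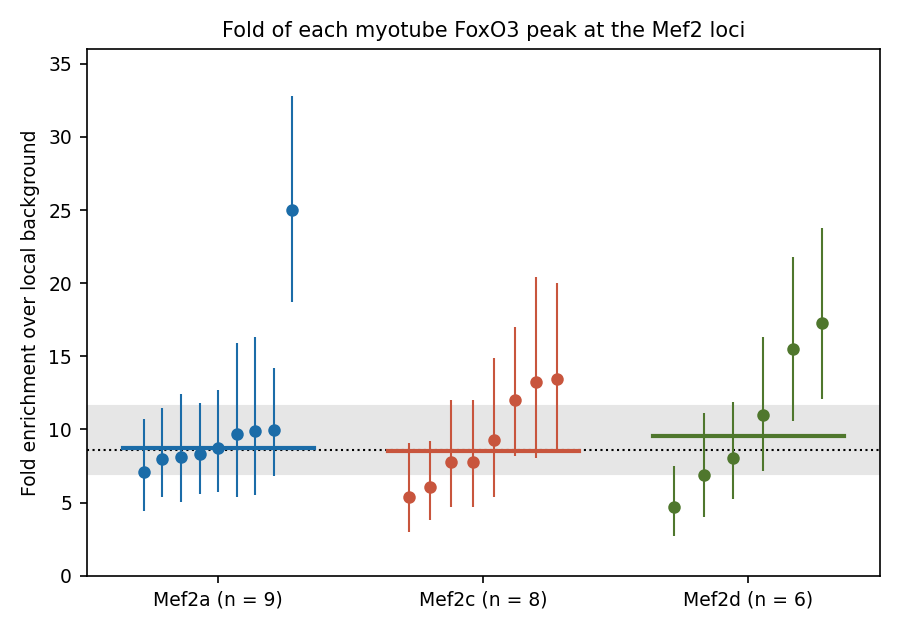
Fold enrichment over local background (vertical axis, linear) of each myotube peak at Mef2a (n = 9), Mef2c (n = 8) and Mef2d (n = 6), sorted within each gene, with vertical lines for the exact Poisson 95% interval from the summit reads alone. Thick bars are the medians 8.70, 8.52 and 9.54, the grey band spans the quartiles of the whole myotube list, 6.92 and 11.60, and the dotted line is its median. The medians lie together and 1 Mef2a peak stands at 24.98.

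In fold enrichment the loci were near the middle of the myotube list. The median fold was 8.70 at Mef2a (order-statistic 95% interval 8.01 to 9.99), 8.52 at Mef2c (5.41 to 13.44) and 9.54 at Mef2d (4.70 to 17.25), beside 8.59 over all myotube peaks. Of the 23 peaks, 12 lay above the list median, where 49.9% of all myotube peaks did. A fold of 10 or more was reached by 7 of 23, where 35.4% of the list reached it. These 7 were 1 at Mef2a, 3 at Mef2c and 3 at Mef2d. A −log10 q-value of 10 or more was reached by 12 of 23 (5, 3 and 4), where 41.4% of the list reached it. For fold, the shares are near those of the whole list. Among windows of the same length that held peaks, 55.0% had a median fold at least that of Mef2a, 59.4% at least that of Mef2c and 42.4% at least that of Mef2d.

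The order of the genes by strength depended on the measure. By recovered reads at the summit, the median was 27 at Mef2a, 25 at Mef2d and 20 at Mef2c, beside 18 over the list, and 17 of the 23 peaks had more than 18 reads, where 47.6% of the list did. By fold, Mef2d came first with the 20 kb flank. With a flank of 50 kb Mef2c did, with a median fold of 10.64, against 9.14 at Mef2d. The fold divides those reads by the local background. That background had a median of 3.10 reads at Mef2a, 2.58 at Mef2c and 2.37 at Mef2d, and of 2.07 over the list. It was between 1.51 and 3.62 reads at all 23 peaks, so none (0) had a raised background of over 4.53 reads, against 3.58% of the list. The Mef2c peak of fold 13.22 and the Mef2c peak of fold 7.74 at 11.4 kb had the same 20 reads, over backgrounds of 1.51 and 2.58. Likewise the Mef2a peak of fold 9.91 had 15 reads over 1.51, and the one of fold 8.29 had 30 reads over 3.62. Differences in fold among peaks of about 5 to 14 were thus in part differences in a background of a few reads.

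**Figure D3:**
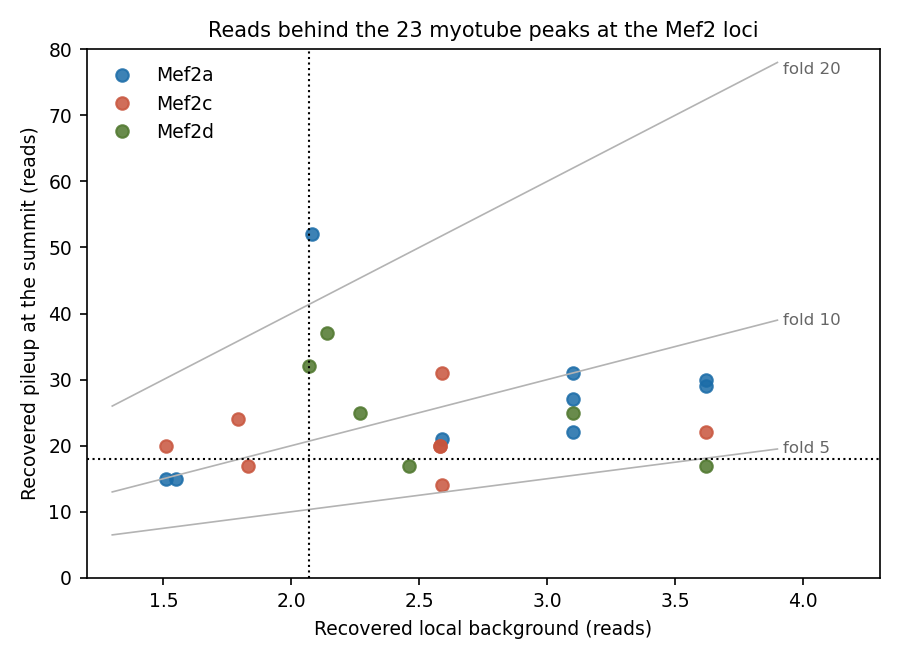
Recovered reads at the summit (vertical axis) against recovered local background in reads (horizontal axis) for the 23 myotube peaks, coloured by gene. Grey lines join points of equal fold (5, 10 and 20) and dotted lines are the medians of the whole myotube list, 18 and 2.07 reads. The Mef2a peak of 52 reads stands above the others, whose pileups run between 14 and 37.

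By the share of peaks in groups and by median distances, the peaks lay closest together at Mef2d. Peaks no more than 12 kb apart were joined, and 5 of the 6 Mef2d peaks, 3 of the 8 Mef2c peaks and 0 of the 9 Mef2a peaks fell into groups of 3 or more. Together these are 8 of 23, where 50.5% of the myotube list lay in such groups. Mef2a had 4 pairs and 1 lone peak, Mef2c had 2 pairs, 1 group of 3 and 1 lone peak, and Mef2d had its group of 5 and 1 lone peak. Over the whole list 19.0% of peaks lay in pairs and 30.5% stood alone. The median gap between neighbouring summits was 4.9 kb at Mef2d, 9.7 kb at Mef2a and 11.6 kb at Mef2c, and the largest gaps were 23, 64.7 and 44.9 kb. The smallest gaps ran the other way, with 2296 bp at Mef2d, 1325 bp at Mef2a and 345 bp at Mef2c. Mef2d also had the shortest window, 70 kb against 182 kb at Mef2a and 204 kb at Mef2c, which bounds its gaps. The median distance to the nearest summit was 4424 bp at Mef2d, 5810 bp at Mef2a and 7201 bp at Mef2c, beside 4887 bp over the list. No group at these genes reached beyond the windows.

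Peaks were denser at the loci than over the list as a whole, most of all at Mef2d. The density was 85.7 peaks per Mb at Mef2d, 4.83 times the mean of 17.7 per Mb (Poisson interval 1.77 to 10.5). At Mef2a it was 49.5 per Mb, or 2.79 times the mean (1.27 to 5.29). At Mef2c it was 39.2 per Mb, or 2.21 times (0.954 to 4.35), an interval that includes the mean. These intervals take peaks as independent, whereas 50.5% of the myotube list lay in groups of 3 or more. They are therefore too narrow, and none of them tests a locus against the mean. Even so they overlap between the genes, so the order of the genes by density was not resolved. Relative to the mean of its own chromosome the ratio was 4.97 at Mef2d, 3.99 at Mef2a and 2.19 at Mef2c. Windows with at least as many peaks were not rare. They made up 4.89% of 36583 windows at the Mef2d length, 11.0% of 14065 at the Mef2a length and 15.9% of 12546 at the Mef2c length, and 12%, 19.0% and 26.4% of the windows that held any peak.

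**Figure D4:**
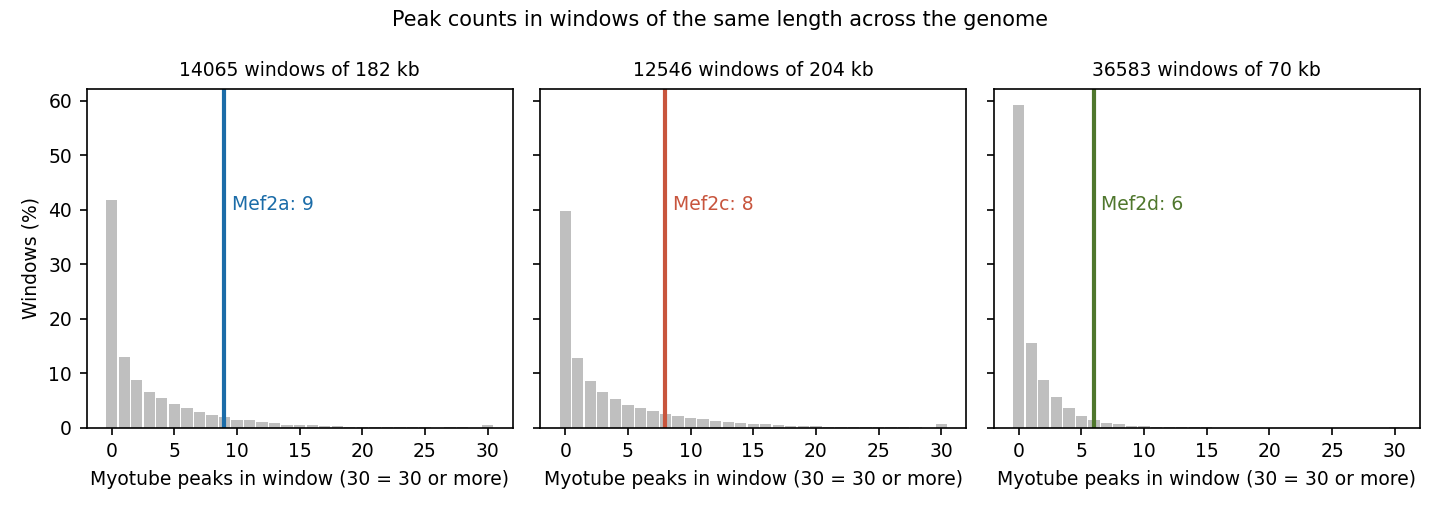
Share of windows (vertical axis, percent) by number of myotube peaks (horizontal axis), for windows of the length of each locus laid end to end across the autosomes and X, with counts of 30 or more drawn at 30. Coloured lines mark Mef2a at 9, Mef2c at 8 and Mef2d at 6 peaks. Each lies in the upper part of its distribution, with 11.0%, 15.9% and 4.89% of windows holding as many or more.

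Set against their surroundings, the genes came in the opposite order. The 500 kb on either side of the genes, outside the windows, held 68.8 peaks per Mb at Mef2d, 28.1 at Mef2a and 16.7 at Mef2c. The density at the locus was 1.25 times that of the surroundings at Mef2d (0.458 to 2.71), 1.76 times at Mef2a (0.804 to 3.34) and 2.35 times at Mef2c (1.02 to 4.64). The surroundings held 66 further peaks at Mef2d, 27 at Mef2a and 16 at Mef2c. The density around Mef2c was close to the list mean of 17.7 per Mb. At Mef2d a flank of 50 kb in place of 20 kb added 2 peaks to its 6. That is too few to judge how evenly the further peaks were spread. The intervals count the locus peaks only and overlap between the genes, so this order was not resolved.

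The edge of the windows left out peaks that bear on the picture of Mef2c. Just outside, a peak of fold 10.23 (20 reads) lay 20.3 kb past the end of Mef2d. Just inside, the Mef2a peak 17.9 kb upstream had a fold of 8.70. No peak lay within 20 kb before the start of Mef2c, but 44.9 and 44.2 kb before it were peaks of fold 20.98 (45 reads) and 17.02 (44 reads), from 83597856 to 83598192 and from 83598676 to 83598942. Both folds exceed that of every Mef2c peak inside the window. They were named after their values were seen and are no members.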

How the data were processed

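Per the file headers, the authors deposited 1 FoxO3 peak list per sample in the narrowPeak layout. The deposited lists give each peak's fold enrichment over local background, a linear ratio. The deposited p-values and q-values are on the −log10 scale, and the deposited score is that q-value on a scale 10 times larger, without decimals. The submitters' processing notes name MACS2 2.1.0 and build mm9. Aligner, control library and calling threshold were not given in the sources used here, so total depth is unknown. The peak values are the authors' own.

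Gene ends were approximate mm9 positions. Reads at each summit (pileup) and background were recovered from the fold, read as pileup over background, and the p-value, read as a Poisson upper tail (log10 tolerance 0.02). A whole-number pileup was found for 45457 of 45457 myotube and 501 of 501 myoblast peaks, with medians of 18 and 8 reads. The procedure was also run on data simulated under this same reading, which cannot check whether the deposited values follow it. The most frequent myotube background was 1.51 reads, and one over 3 times that is called raised. The Poisson 95% intervals cover counting error only. Those from order statistics are for the median fold of a locus, not for the spread of its peaks, and take the peaks as independent draws. The peaks share 1 library and are not replicates, so these intervals hold no replicate error and serve as description only. Peaks at most 12 kb apart, end to start, were joined, and overlap required 1 bp. With 1 library per group no test was made. Alternatives were other flanks, q-value thresholds, joining distances, assignment by overlap, and removal of the narrowest peaks or of raised background.

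The genes and measures were chosen with earlier results of these data known. Peaks to name were, at each locus, any in the myoblast list, the 5 of highest fold, the one nearest to the start and the largest group. The loci hold few peaks, so all are given. Software was scipy 1.17.1, pandas 2.3.3 and numpy 2.4.6 under Python 3.11.15.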

Additional observations from a re-analysis of the deposited data

How the results depend on the processing

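Counts were held to 1.5 times the reported count, and median folds and density ratios to their 95% intervals. By these bounds 101 of 111 alternative values stayed and 10 moved. Changes in the order of the genes were not scored. Without the 20 kb flank, Mef2a had 5 peaks and Mef2d 2, both in its group. The density ratio was then 1.98 at Mef2a and 2.75 at Mef2c, so these genes changed places. With only peaks of −log10 q 10 or more, Mef2a had 5 peaks and Mef2c 3, with 0 of those in groups. The median fold was then 13.22 at Mef2c and 13.24 at Mef2d, and the density ratio 7.78 at Mef2d. Joining at 5 kb left 0 Mef2c and 3 Mef2d peaks in groups, and joining at 25 kb put 7 Mef2a peaks into groups. A flank of 50 kb raised the Mef2c peaks in groups to 5, by construction from 2 peaks farther upstream. The other moves follow from the peaks or gaps each setting drops, and their causes were not otherwise tested. With a flank of 50 kb the median fold was 10.64 at Mef2c and 9.14 at Mef2d, so that order turned. Median folds and density ratios stayed within their intervals, which are wide, under every alternative run. At Mef2c and Mef2d the median interval is the full range of the peaks, so settings that only drop peaks could not leave it. Removing raised background could change no peak count, group count or median fold, since no peak of the loci had one. The myoblast count was 0 under all, and only a wider flank or assignment by overlap could have raised it. The 101 values that stayed thus include some that could not move. Pileups of 14 to 52 reads limit any ranking of the peaks. No paired analysis was possible because the groups hold a single library each.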
